A study of Mus musculus with 2 samples.

Results

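Csf1, Il34 and Csf1r encode 2 secreted ligands and the receptor that both of them bind, and their transcripts were compared in mouse primary hepatocytes, the parenchymal cells of the liver isolated for culture. One Agilent array carried RNA of cells transfected with G0s2 siRNA and 1 carried RNA of cells transfected with control siRNA. Both cultures were grown in 24-well plates in medium with 10% serum and were given 50 pmol of their siRNA in a Lipofectamine lipid carrier, and RNA was taken 24 h later. The product of G0s2 blocks adipose triglyceride lipase, which starts the breakdown of stored triglyceride. Strain, sex and age of the animals, the number of animals behind each culture and the siRNA sequences are not given in the sources used here. The members are all 7 non-control probes, in 16 spots per array, that the array design assigns to the 3 gene names, of 39424 probes kept and 15419 genes measured. The 3 genes were chosen by the measured difference between these arrays, in which both ligands were lower with G0s2 siRNA, so the differences of Csf1 and Il34 are given as a description, with no test.

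CSF1 and IL-34 are cytokines that share no evident sequence similarity, yet each binds and activates the receptor tyrosine kinase encoded by Csf1r. The receptor is found chiefly on monocytes, macrophages and their relatives, among them Kupffer cells, the resident macrophages of the liver, and its signal keeps these cells alive, dividing and differentiating. CSF1 is made by many cell types and exists in secreted and membrane-bound forms, while IL-34 is best known from keratinocytes and neurons. Hepatocytes are not a usual site of the receptor, so its transcript in a hepatocyte culture is read here beside macrophage markers.

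Each probe is a 60-base oligonucleotide that binds the labelled RNA, and 3 stretches of 30 bases from the 4 ligand probes are shown, since the ligand results rest on where in the transcript these oligonucleotides lie. The first sequence is common to both single-spot Csf1 probes, which overlap by 31 bases, and it is set in capitals because a reading of either probe depends on it. The other sequences are the last 30 bases of the Csf1 probe printed in 10 spots and of the only Il34 probe.
Csf1, shared by both overlapping probes: CAGCTGCATCATATATTGTCATATGTTGAG
Csf1, 10-spot probe: actatttccatgctagaaaatacatatttt
Il34, single probe: ggacttactggggcttttcagttgtgctga
On mm9, as the scanner tables give it, the 10-spot Csf1 probe lies at chr3:107544333-107544392 on the minus strand, and the overlapping probes lie at chr3:107548550-107548609 and chr3:107548521-107548580. The array design lists the 10-spot probe under transcript NM_007778 and the overlapping probes under NM_001113530, so this probe and the overlapping pair read separate stretches of the Csf1 locus. The Il34 probe lies at chr8:113265835-113265894 on the minus strand and is listed under NM_029646. G and C make up 36.7% of the 10-spot Csf1 probe and 55.0% of the Il34 probe. Whether these stretches are coding or untranslated was not annotated here.

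The knockdown target was lower on the array of G0s2 siRNA cells. The level of G0s2, given here and throughout as log2 signal minus the array's 75th percentile, was -2.83 on the G0s2 siRNA array and -0.13 on the control siRNA array. The difference was -2.70 ± 0.21, where the error is the scanner's own signal error carried to the log2 difference, with 1 array per group. The 75th percentile itself stood at a signal of 728 on the G0s2 siRNA array and 418 on the control siRNA array, and 58.3% and 54.1% of probes were well above background on these arrays. Across all genes the median difference was -0.03, and 5.46% of genes were at least 2-fold lower and 4.82% at least 2-fold higher on the G0s2 siRNA array. The arrays shared a slide and a scan start, and the place of each array on that slide cannot be told apart from its siRNA. No value has a replicate check, and every difference compares these 2 arrays.

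Csf1 was lower on the G0s2 siRNA array by every probe. The 10-spot probe had a lowest, median and highest signal of 532, 573 and 589 on the G0s2 siRNA array, against 1880, 1969 and 2073 on the control siRNA array. The 2 sets of spots did not overlap, and the lowest control siRNA spot was 3.19 times the highest G0s2 siRNA spot before any scaling. These spots repeat the reading of 1 labelled RNA and are not replicate cultures. Their coefficient of variation was 2.82% on the G0s2 siRNA array and 2.91% on the control siRNA array. Scaled to the 75th percentile, the level was -0.36 on the G0s2 siRNA array and 2.24 on the control siRNA array, a difference of -2.60 ± 0.20, which is 6.05-fold lower. Spots at the same place on both arrays gave 10 differences from -2.67 to -2.53, and their SD of 0.04 was below the scanner's error. In RNA from a whole culture, fewer cells that make a transcript and less of it per cell cannot be told apart.

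The overlapping Csf1 probes read a separate stretch of the gene and gave smaller differences. The first, A_55_P2017914, had a signal of 148 on the G0s2 siRNA array and 421 on the control siRNA array, and its log2 difference was -2.30 ± 0.21, or 4.94-fold lower. The second, A_55_P2169669, had a signal of 168 on the G0s2 siRNA array and 408 on the control siRNA array, and its log2 difference was -2.08 ± 0.21, or 4.23-fold lower. Both probes stood on the same side as the 10-spot probe. The 10-spot probe's difference was lower than that of A_55_P2017914 by a log2 gap of -0.29 ± 0.29, about the size of the scanner's error, and its gap to A_55_P2169669 was -0.52 ± 0.29. With normexp background correction, a model that separates signal from background, these gaps were -0.60 and -0.78. Since the overlapping probes share sequence, they are not independent readings of Csf1.

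Il34 was read by 1 probe in 1 spot per array. Its signal was 172 on the G0s2 siRNA array and 509 on the control siRNA array. Its level was -2.08 on the G0s2 siRNA array and 0.28 on the control siRNA array, a difference of -2.37 ± 0.21, which is 5.16-fold lower. The gap of the 10-spot Csf1 probe minus Il34 was -0.23 ± 0.29, within the scanner's error, and with normexp it was -0.46, beyond it. Over the mean of the Csf1 probes it was 0.04. With a single spot, nothing on the array checks the Il34 reading a second time.

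**Figure D1:**
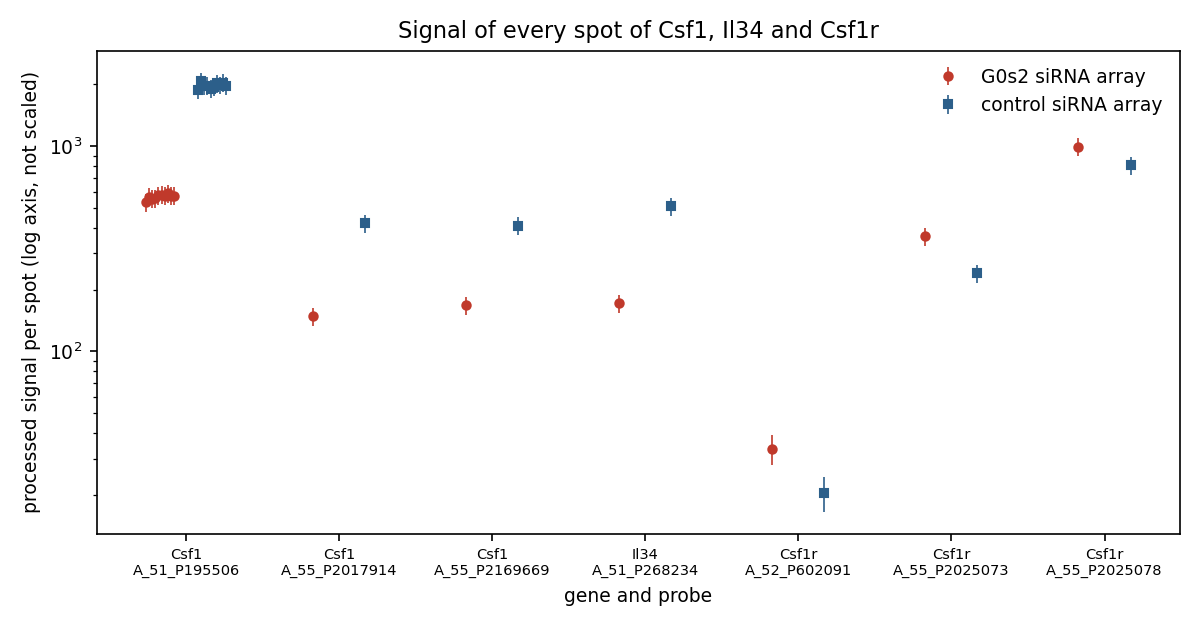
Processed signal on a log axis of each of the 16 spots of the 7 probes, G0s2 siRNA in red left of control siRNA in blue, with bars for the scanner's error of each spot. The red spots of the 10-spot Csf1 probe lie between 532 and 589 and the blue ones between 1880 and 2073, while all 3 Csf1r probes have the higher unscaled signal on the G0s2 siRNA array.

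After 75th percentile scaling, Csf1r, the receptor, differed much less between the arrays than its ligands. Its brightest probe, A_55_P2025078, had a signal of 992 on the G0s2 siRNA array and 806 on the control siRNA array. Because the scaling factor of the G0s2 siRNA array is larger, the level was 0.45 on the G0s2 siRNA array and 0.95 on the control siRNA array, a difference of -0.50 ± 0.20. Before scaling the same probe was 1.23-fold higher on the G0s2 siRNA array, so the sign for Csf1r depends on the scaling. The second probe, A_55_P2025073, had a signal of 364 on the G0s2 siRNA array and 240 on the control siRNA array, and its scaled difference of -0.20 ± 0.21 was within the scanner's error. The third, A_52_P602091, was dim, with a signal of 33.6 on the G0s2 siRNA array and 20.5 on the control siRNA array, and a difference of -0.09 ± 0.37. The lowest signals well above background were 18.1 and 14.3 on these arrays, so this probe carries little information. No Csf1r probe was 2-fold different after 75th percentile scaling. With the arrays centred on 8 spike-in controls instead, these probes were at 1.05, 1.35 and 1.46, each at least 2-fold higher. On that scale Csf1 was at -1.05 and Il34 at -0.82, so the receptor did not differ less than its ligands. On mm9 the probes lie on the plus strand at chr18:61290725-61290784, chr18:61278661-61278720 and chr18:61289398-61289758, the last spanning 361 bases of genome with its 60 bases, and all are listed under NM_001037859.

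Counted by gene, 2 of the 3 were at least 2-fold lower, where 5.46% of all genes were, and counted by probe 4 of the 7 were. These counts follow from the choice of the genes and say nothing further. All 7 probes were well above background on both arrays. Of 14117 genes well above background on both arrays, 27 had a difference as low as that of the 10-spot Csf1 probe or lower, 39 as low as Il34, and 17.6% as low as Csf1r. The array carries 399 probes printed in 10 spots, and 247 of them stood well above background on each array. Among these the Csf1 probe had the third lowest difference, and their median was -0.03. The low ranks of Csf1 and Il34 follow from the same choice and are no test. Each count of genes as low includes the gene itself.

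**Figure D2:**
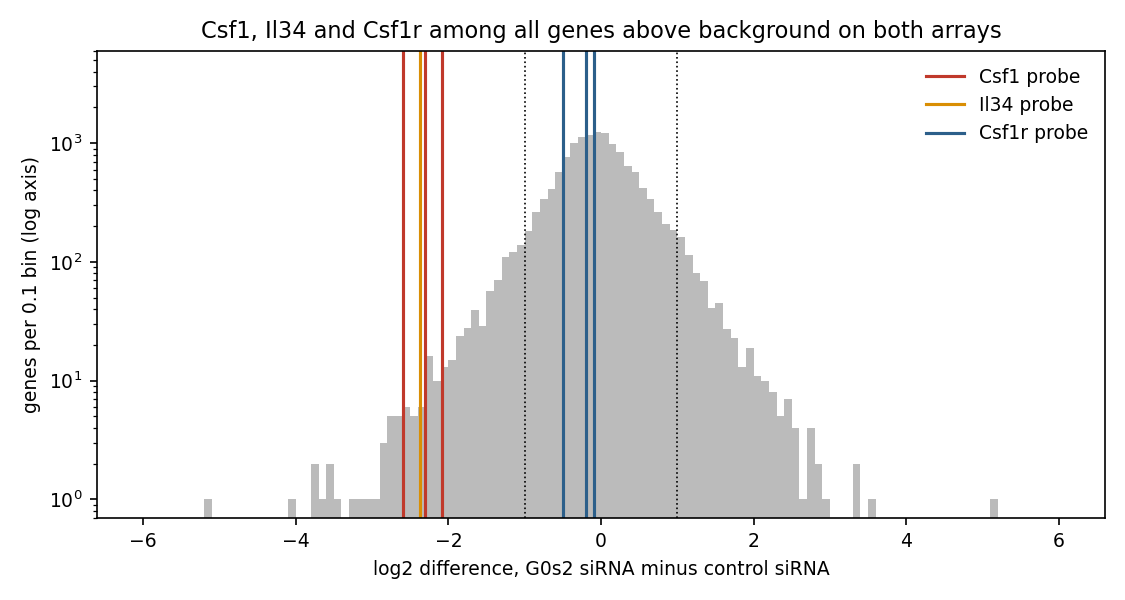
Distribution of the log2 difference, G0s2 siRNA minus control siRNA, over the 14117 genes above background on both arrays, with dotted lines at 2-fold. A line marks each probe, for Csf1 at -2.60, -2.30 and -2.08, for Il34 at -2.37, and for Csf1r at -0.50, -0.20 and -0.09. Both ligands, chosen for being lower, lie far out in the lower tail and the receptor lies in the body of the distribution.

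By arithmetic, the gap between ligand and receptor cannot depend on the value each array is centred on. The difference of Csf1 minus that of Csf1r was -2.10 ± 0.29 on the log2 scale, and it ran from -2.10 to -2.05 under 11 other processing settings. Some of these settings change only the centring or the filter and so cannot move the gap. For Il34 the gap to Csf1r was -1.87 ± 0.29, and it ran from -2.11 with the mean over each gene's probes to -1.59 with normexp. The scanner's error holds nothing of the spread among cultures or RNA extracts. Since the ligands were chosen by these differences, both gaps are a description and no test. When the arrays were centred on 8 spike-in controls in place of the 75th percentile, the median of all genes moved to 1.49, Csf1 to -1.05, Il34 to -0.82 and Csf1r to 1.05. Relative to that median, Csf1 was at -2.54, Il34 at -2.31 and Csf1r at -0.44. Such a shift moves all genes above background on both arrays alike, so these distances could hardly change and check nothing.

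**Figure D3:**
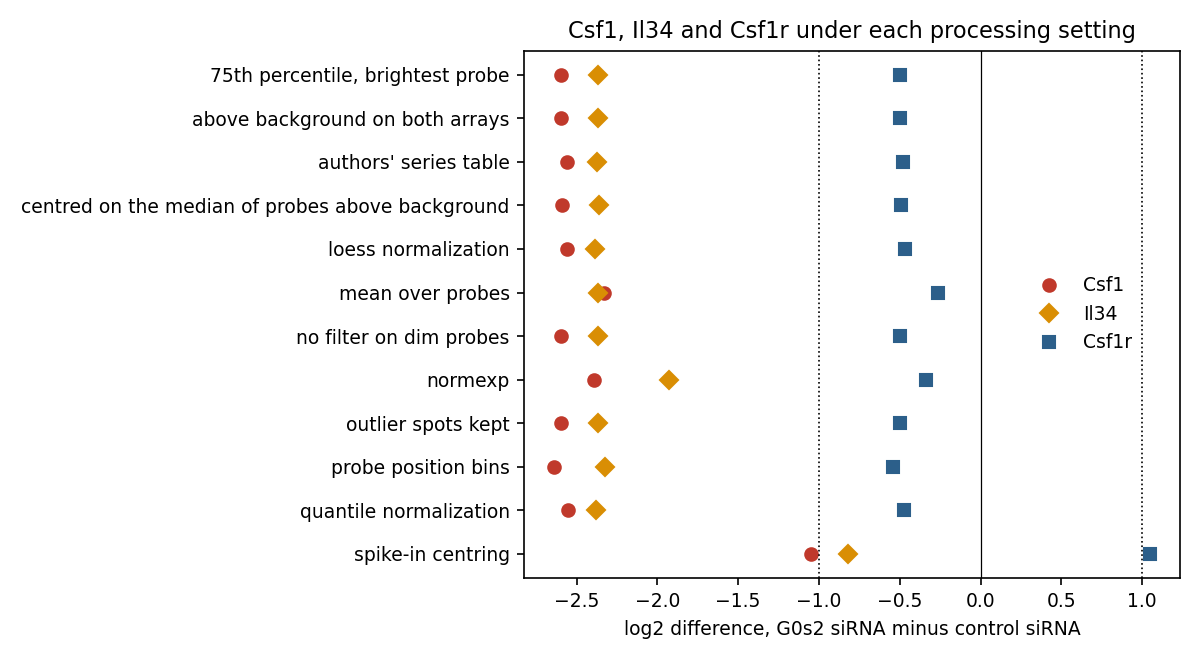
Log2 difference, G0s2 siRNA minus control siRNA, of Csf1, Il34 and Csf1r on the horizontal axis under each of 12 processing settings, with dotted lines at 2-fold. Csf1 and Il34 are below 0 in each, and Csf1r is below 0 in each except spike-in centring, where it is at 1.05.

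The promoter of Csf1 is shown because the Csf1 transcript was lower by all 3 of its probes. The 250 bases before its start site are credited to RefSeq, from assembly GRCm38.p6, chr3:107760470-107760719 on the minus strand, and capitals mark matches to the searched motifs.
Csf1 promoter: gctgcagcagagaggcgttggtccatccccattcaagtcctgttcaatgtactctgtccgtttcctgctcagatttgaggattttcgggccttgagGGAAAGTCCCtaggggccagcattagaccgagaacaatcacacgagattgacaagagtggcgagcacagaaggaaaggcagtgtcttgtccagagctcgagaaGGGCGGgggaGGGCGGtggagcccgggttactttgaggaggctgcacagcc
Both strands were searched for the NF-kB consensus, the GGGCGG core bound by Sp1, TATAAA, and TGANTCA, the element bound by AP-1. The window held 1 match to the NF-kB consensus and 2 to GGGCGG, and none to TATAAA or TGANTCA. The motifs did not overlap one another. Of 32851 promoters of the same length, 3.90% held the NF-kB consensus, 32.7% held GGGCGG, 12.4% held TATAAA and 6.75% held TGANTCA. A match is a description of the letters and no evidence of binding in these cells.

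Genes around the receptor were taken from 6 lists of 62 genes, of which 49 were measured. Of these, 7 were at least 2-fold lower on the G0s2 siRNA array, or 14.3%, where 5.46% of all genes were, and 1 was at least 2-fold higher, or 2.04%, where 4.82% of all genes were. The median difference over the 49 genes was -0.21, beside -0.03 over all genes. The lists were chosen with earlier results of these data known, so neither figure is a test of the pathway.

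The genes that meet the receptor at the cell surface were all within 2-fold. None of the 6 measured regulators and partners passed the rule, and their median difference was -0.08. Adam10, a protease that sheds membrane proteins, had a level of 1.55 on the G0s2 siRNA array and 2.08 on the control siRNA array, a difference of -0.53 ± 0.20. Tyrobp, the adaptor DAP12 that passes on signals of myeloid receptors, differed by -0.41 ± 0.21. Adam17, the protease that cleaves CSF1 and its receptor from the cell surface, differed by 0.16 ± 0.31, but its second probe by -0.36 and its value with normexp was -0.35, so it has no settled sign. Sdc1, a heparan sulfate proteoglycan that binds IL-34, differed by 0.12 ± 0.20. Ptprz1, a second receptor of IL-34, was not well above background on either array.

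Transcription factors that drive Csf1r or the monocyte fate did not pass the rule either, in 6 of 6 measured. Directions here are relative to the 75th percentile. Spike-in centring put Maf at 0.78 and each of the others past 2-fold higher, from 1.23 for Runx1 to 1.70 for Ets2. Maf, a factor of macrophage differentiation, had a level of -2.74 on the G0s2 siRNA array and -1.97 on the control siRNA array, a difference of -0.76 ± 0.22. Runx1, which acts at the Csf1r gene in blood cells, differed by -0.32 ± 0.21 and by 0.21 on its second probe, with a mean of -0.06 over its probes. Spi1, the gene of PU.1 and a master regulator of Csf1r, was not well above background on either array.

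Among the carriers of the receptor's signal, 4 of 18 measured genes were at least 2-fold lower and none was higher, with a median difference of -0.42. Shc1, an adaptor that links receptor tyrosine kinases to Ras, had a level of -0.32 on the G0s2 siRNA array and 1.94 on the control siRNA array, a difference of -2.26 ± 0.20. Fes, a cytoplasmic tyrosine kinase of myeloid cells, differed by -1.42 ± 0.20, and its second probe by -1.34. Plcg2, a phospholipase that makes second messengers, differed by -1.37 ± 0.21, and Src, a membrane-anchored tyrosine kinase, by -1.27 ± 0.28. With normexp Src was at -0.79, no longer 2-fold lower. Under spike-in centring Fes, Plcg2 and Src were above 0, at 0.13, 0.18 and 0.28, and Shc1 stayed below it at -0.71. All of these serve other receptors as well. The remaining 14 were within 2-fold, among them Mapk3, the kinase ERK1, at -0.85, and Stat3, a transcription factor that cytokines activate, at 0.05.

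The genes that switch the receptor off lay on both sides of 0. Of 8 measured, Cbl was higher and Socs1 lower by the 2-fold rule, and the median difference was -0.38. Socs1, a suppressor of cytokine signalling that cytokines themselves induce, had a level of -3.77 on the G0s2 siRNA array and -1.55 on the control siRNA array, a difference of -2.22 ± 0.23. Cbl, a ubiquitin ligase that sends the activated receptor to degradation, had a level of -2.19 on the G0s2 siRNA array and -3.67 on the control siRNA array, a difference of 1.48 ± 0.26. With normexp the difference of Cbl was 0.45 and that of Socs1 -1.64. Under spike-in centring Cbl was at 3.03 and Socs1 at -0.68.

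Among related receptors and their ligands, 2 of 7 measured genes were at least 2-fold lower, and both encode ligands of receptors in the same family as Csf1r. Pdgfb, a chain of platelet-derived growth factor, had a level of -3.78 on the G0s2 siRNA array and -1.75 on the control siRNA array, a difference of -2.02 ± 0.23. With normexp Pdgfb was at -1.29, and under spike-in centring at -0.47, no longer 2-fold lower. Kitl, the stem cell factor that binds Kit, had a level of -4.30 on the G0s2 siRNA array and -3.01 on the control siRNA array, a difference of -1.29 ± 0.27, and its value was -0.89 with normexp and 0.26 under spike-in centring. Other ligands of these families were nearer 0, with Pdgfc at -0.77 and Flt3l at -0.45. The receptors Kit and Flt3 were well above background on 1 array only.

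Other colony stimulating factors gave no difference past the rule. Csf2, Csf3 and Il3 were not well above background on either array. Of 4 receptor genes measured, Csf2ra was at -0.66 ± 0.20. Csf2rb2 was at 0.87 ± 0.26, with its second probe at 0.12 and a value of 0.07 with normexp. Under spike-in centring Csf2ra was at 0.89, Csf2rb at 1.34, Csf3r at 1.76 and Csf2rb2 at 2.42. Csf2rb2 and Csf2rb are near-identical copies, so which of them a probe reads is uncertain.

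**Figure D4:**
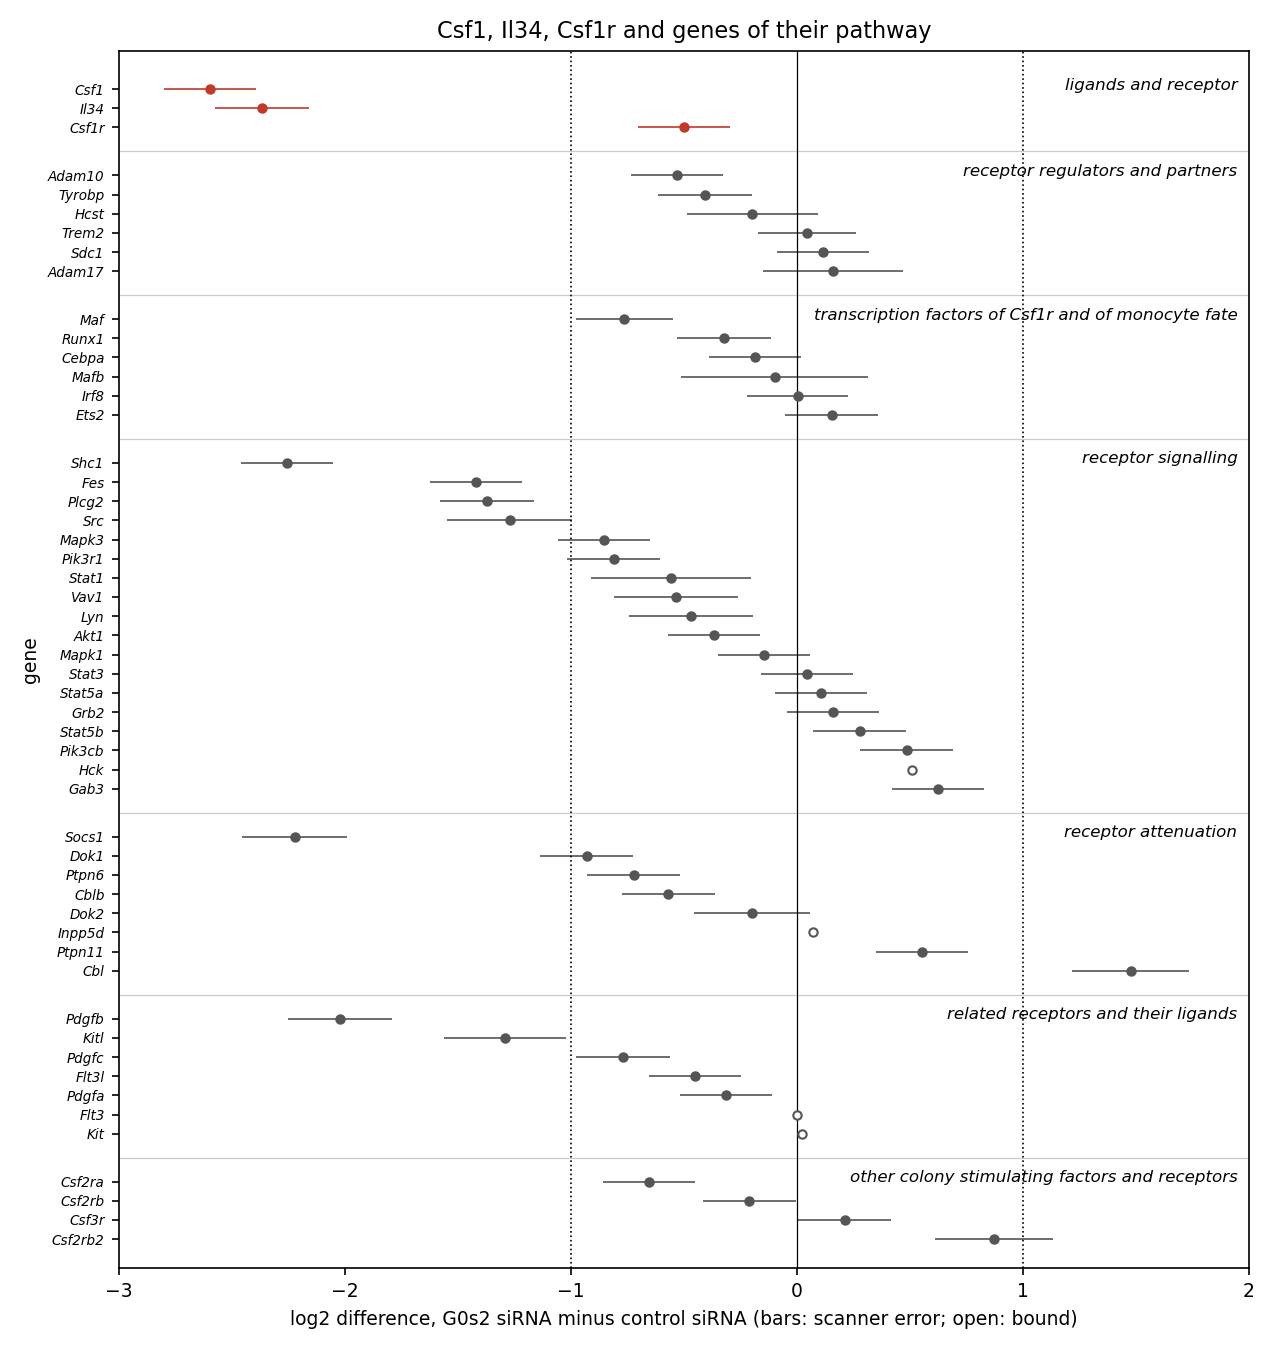
Log2 difference, G0s2 siRNA minus control siRNA, of Csf1, Il34 and Csf1r in red and of the 49 measured genes of 6 lists in grey, with bars for the scanner's error and open circles for bounds where 1 array was dim. Of the grey genes, 7 lie below the dotted line at -1 and 1 above the line at 1, while under spike-in centring none is below -1.

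Markers of macrophages, the cells that carry the receptor, were well above background on both arrays for 15 of 24, and differed in both directions. Of 24 macrophage markers, 17 were measured, and their summed signal, in units of each array's 75th percentile, was 20.8 on the G0s2 siRNA array and 20.7 on the control siRNA array. Bright probes of Itgam, Mpeg1 and Cd14 carry much of this sum, and Mpeg1 and Cd14 lie on opposite sides of 0, so near-equal sums do not show that the markers were alike. Their median difference was 0.14, or 1.69 under spike-in centring, where the median of all genes was 1.49. After 75th percentile scaling, 4 of the 17 were below 0. Cd68, a lysosomal protein of macrophages, differed by 0.14 ± 0.20, and Clec4f, a lectin of Kupffer cells, by -0.33 ± 0.22. Marco was at 0.56, Cd5l at 0.50 and Vsig4 at 0.35. Adgre1, a surface receptor of mouse macrophages, differed by 0.67 ± 0.35, or -0.11 with normexp. Mpeg1, a pore-forming protein of macrophages, was 2.27-fold lower, and its second probe differed by -1.91 on the log2 scale. Under spike-in centring, however, Mpeg1 was at 0.37. Cd14, a receptor for lipopolysaccharide, was 2.14-fold higher, and Lyz2, a lysozyme, was at least 2.51-fold higher but at 0.00 with normexp. Timd4, Cd163, Fcgr1, Cx3cr1, Ccr2, Ptprc and Msr1 were not well above background on either array.

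Hepatocyte markers supplied most of the marker signal. All 14 were measured, with a summed signal of 2258 on the G0s2 siRNA array and 1858 on the control siRNA array, a median difference of 0.36 and 2 genes at least 2-fold higher, Cps1 at 2.96, an enzyme of the urea cycle, and Hnf4a at 1.04, a hepatocyte transcription factor. Cholangiocyte markers summed to 4.52 on the G0s2 siRNA array and 7.74 on the control siRNA array, with a median difference of -0.87 and with Krt19 and Cldn7 at least 2-fold lower and Tspan8 and Prom1 at least 2-fold higher, among 7 of 8 measured, and under spike-in centring Krt19 and Cldn7 stood above 0, at 0.42 and 0.26. With normexp, Krt19 at -0.90, Tspan8 at 0.56 and Prom1 at 0.00 were within 2-fold. Endothelial markers summed to 8.03 and 10.1 on these arrays, although their median difference was 0.62 and 2 of the 8 measured, of 10, were below 0. Kdr, whose probe carries most of the sum, differed by -0.51 and on its second probe by 1.27, and Cdh5 was at 1.01, or 0.13 with normexp. Stellate cell and fibroblast markers summed to 2.19 and 1.1, with a median difference of 0.59, 4 of 10 measured and Dcn at 1.12. Lymphocyte and neutrophil markers summed to 1.84 and 2.85, with a median difference of -0.63, 3 of 10 measured and Cd3e at -1.01, or 0.54 under spike-in centring. The part of these cell types in the ligand differences was not tested.

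Genes with the nearest log2 difference over these 2 arrays were named for each of the 3. Bex4 at -2.60 and Cxcl13 at -2.61 were nearest to Csf1, Zcchc24 and Cdh15, both at -2.36, to Il34, and Prrg1 and Thumpd2, both at -0.50, to Csf1r. Cxcl13 encodes a chemokine that attracts B cells, and Cdh15 a cadherin of muscle. A likeness over 2 arrays rests on a single difference per gene.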

How the data were processed

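RNA from mouse primary hepatocytes was hybridised in a 1-colour Cy3 design, 1 array per group, and groups were taken from the sample labels. Spot intensity in the deposited scanner tables was read, per the file headers, with Agilent Feature Extraction 10.7.1.1, with probe positions on mm9. The processed signal is background-corrected by the scanner software, per the file headers. The authors' deposited series table holds intensity with 97.8% of ranked values identical between the arrays, by a method not given in the sources used here, and entered as an alternative.

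Levels are log2 processed signal minus each array's 75th percentile. Control and outlier spots were left out, spots of a probe averaged, and each gene represented by the brightest of its probes that passed the scanner's background test on either array. Where 1 array was dim, its value was raised to the lowest signal well above background and the difference is a bound. Of the probes, 26408 were named by accession, 3854 by symbol and 734 by synonym through RefSeq, and 8428 were left without a current symbol. The depth is that of signal over background, and the number of arrays limits the precision. No p-value was computed. Genes named from the pathway lists include those at least 2-fold different and the 2 with the largest absolute difference per list. From the marker lists, genes at least 2-fold different and defining macrophage markers were named. G0s2 was named too, and for each of Csf1, Il34 and Csf1r the 2 genes nearest in difference. Further genes, such as Stat3, Sdc1, Adam17 and Kdr, were named outside this rule. The 3 genes and all lists were chosen with earlier results of these data known. Alternatives changed the background correction (limma 3.58.1, R 4.3.3, normexp with offset 50), centring, normalization, dim-probe filter, probe summary, outlier spots, fold rule and source table. An adjustment for probe position in 10 bins was chosen after seeing the data. Python 3.11.15, numpy 2.4.6 and pandas 2.3.3 were used, and the code was tested on simulated data.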

Additional observations from a re-analysis of the deposited data

How the results depend on the processing

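Csf1 and Il34 kept their negative sign under each of 11 alternatives, with log2 differences from -2.64 to -1.05 for Csf1 and from -2.39 to -0.82 for Il34. Both ligands were chosen by this same difference, so the kept sign is a description and no test. Some alternatives, such as the changes of the dim-probe filter, left both values as they were. Csf1r was negative under 10 of the 11. Averaging the probes of a gene gave -2.33 for Csf1 and -0.26 for Csf1r. Normexp gave -2.39 for Csf1 and -1.93 for Il34. Spike-in centring gave -1.05 for Csf1, -0.82 for Il34 and 1.05 for Csf1r. The 8 spike-in probes themselves differed by -0.98 to -0.06 between the arrays, and the amounts added are not given in the sources used here, which leaves that scale unsettled. Of the pathway genes, 7 lower and 1 higher by the 2-fold rule became 14 and 3 at 1.5-fold, 3 and 0 at 3-fold, and 0 and 33 under spike-in centring. With normexp, 5 were lower and 0 higher, and with no filter the higher count was 2. Over all genes, 842 lower and 743 higher became 2244 and 1920 at 1.5-fold, 237 and 176 at 3-fold, 1455 and 1523 with no filter, 517 and 378 with normexp, and 40 and 12957 under spike-in centring, where 99.7% of the genes past the rule were higher, beside 46.9% under the 75th percentile. The cause was not tested. The scanner's error covers neither cultures, extracts nor labellings, and 1 array per group allows no replicate check.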

Other observations

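Genes beside Csf1, Il34 and Csf1r on their chromosomes were chosen after their values were seen, and those given here were within 2-fold. Beside Csf1, Ahcyl1 differed by 0.43 and Eps8l3 by 0.53, where Csf1 itself was at -2.60. Beside Il34, Sf3b3, a splicing factor subunit, differed by -0.91, Hydin, a gene of motile cilia, by -0.82, Vac14 by -0.05 and Cog4 by 0.05. Beside Csf1r, Slc26a2, a sulfate transporter, differed by 0.98, Tcof1 by 0.24 and Hmgxb3 by -0.23. These values are G0s2 siRNA minus control siRNA on the log2 scale after 75th percentile scaling.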
